A study of Homo sapiens with 6 samples.

Results

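The 9 genes described here belong to transforming growth factor beta (TGF-β) signalling and its response. TGFB1, TGFB2 and INHBA encode ligands or a ligand subunit, TGFBR1 and TGFBR2 the receptors, SMAD2 and SMAD3 the receptor-regulated transducers, SMAD7 the inhibitory SMAD, and TGFBI a secreted response protein. They were chosen by name: Ensembl transcript rows were matched to gene symbols through GENCODE release 44 and the read counts were summed per gene. All 9 were among the 61015 genes with a transcript on file and among the 20442 genes with enough counts to be tested. The study sequenced lncRNA-type RNA libraries from MDA-MB-231, a mesenchymal, triple-negative human breast cancer line, after selection for resistance to paclitaxel (PTX), a drug that stabilises microtubules. PTX-resistant cells had been sorted by aldehyde dehydrogenase (ALDH) activity into breast cancer stem-like cells (BCSC, ALDH+) and non-BCSC (ALDH−), with 3 libraries each. By the study's description both groups share the line and the drug resistance, and neither is a drug-sensitive control. Only the BCSC titles name the line and the resistance, while the other titles read non-BCSC alone. Group membership followed the sample titles, because the cell type field reads the same for all 6 libraries. No source used here states whether replicates came from separate cultures or sorts, so the p-values measure only the spread between these libraries, which may be technical.

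TGF-β ligands are secreted in a latent form, and once released they bind the type II receptor TGFBR2, which phosphorylates the type I receptor TGFBR1. The activated type I receptor phosphorylates SMAD2 and SMAD3, which bind SMAD4, enter the nucleus and regulate target genes, among them SMAD7, whose product feeds back on the receptor. Activin A, a dimer of the INHBA product, signals to the same SMADs through its own receptors and is bound and neutralised by follistatin. In breast cancer cells this pathway is known for growth arrest in early disease and for epithelial-mesenchymal transition, matrix remodelling and stem-like traits in advanced disease.

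The libraries held 9898588 to 21215352 counts, all 3 BCSC libraries being deeper than the non-BCSC libraries, so that the 3 counts taken as a detection floor corresponded to 0.148 to 0.288 CPM (counts relative to library size, with TMM factors for the genes tested). A gene was called when edgeR's quasi-likelihood test gave a Benjamini-Hochberg adjusted p under 0.05 with a fold above 2. By this rule 1810 genes were higher and 2307 lower in BCSC. The split was 3129 and 1830 after correction for GC content and length, 1798 and 1066 after removal of a background, and 1902 and 4771 in DESeq2 run without a prior filter on low counts (49795 genes tested). Fold changes followed base composition, with a median log2 fold change of -0.90 in the quintile of genes poorest in GC (24.2 to 40.8%) and 1.0 in the richest quintile (54.9 to 77.5%). Olfactory receptor genes, 382 genes not known to be active in this line and taken as background, summed to 37.1 to 145.8 CPM in BCSC and 521 to 1183 CPM in non-BCSC. The mesenchymal line markers summed to 6706 to 7987 CPM in BCSC and 4232 to 5746 CPM in non-BCSC, with CAV1 the 1 of 5 called, higher. The luminal markers summed to 47.0 to 54.4 and 59.0 to 77.3 CPM, with PGR lower and EPCAM at 0 to 19 counts. Of 5 ALDH genes, ALDH1A1, ALDH1A2 and ALDH3A1 were lower in the libraries labelled BCSC and none was higher. ALDH1A3 averaged 29.8 and 17.5 CPM (adjusted p = 0.0577). The blood cell markers summed to 0.783 to 1.45 CPM in BCSC and 14.2 to 24.2 CPM in non-BCSC, where PTPRC alone was tested and was lower in BCSC. The endothelial markers summed to 34.1 to 51.5 and 66.8 to 97.6 CPM, with CDH5 lower. The part of depth, GC content, background and these markers in the results was not tested, beyond the corrected values given beside them.

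Of the 9 genes, TGFB1, SMAD3 and TGFBI were called higher in BCSC and INHBA lower, against 20.1% of all genes called in either direction, 8.85% higher and 11.3% lower. By adjusted p alone, whatever the fold, 5 of 9 passed (29.9% of all genes), TGFB2 being the addition. The CPM of both groups did not overlap for 6 of 9 genes (52.1% of all genes), namely these 5 and TGFBR2. The median log2 fold change over the 9 genes was -0.01 and over all genes -0.05, with members on both sides. After correction for GC content and length these medians were 0.61 and 0.20. With the fold rule as well, 3 of the 9 genes were then called higher and 1 lower, beside 3129 and 1830 of the 20442 genes tested. By adjusted p alone 5 of the 9 genes passed as higher and 1 as lower, and the share over all genes for this count is not given here. In bulk libraries, fewer cells of a type and less RNA per cell cannot be told apart. Correction for GC content and length moved the median of all genes up by 0.25 on the log2 scale and removal of the background by 0.14, and values after these corrections are to be read against those shifts.

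**Figure D1:**
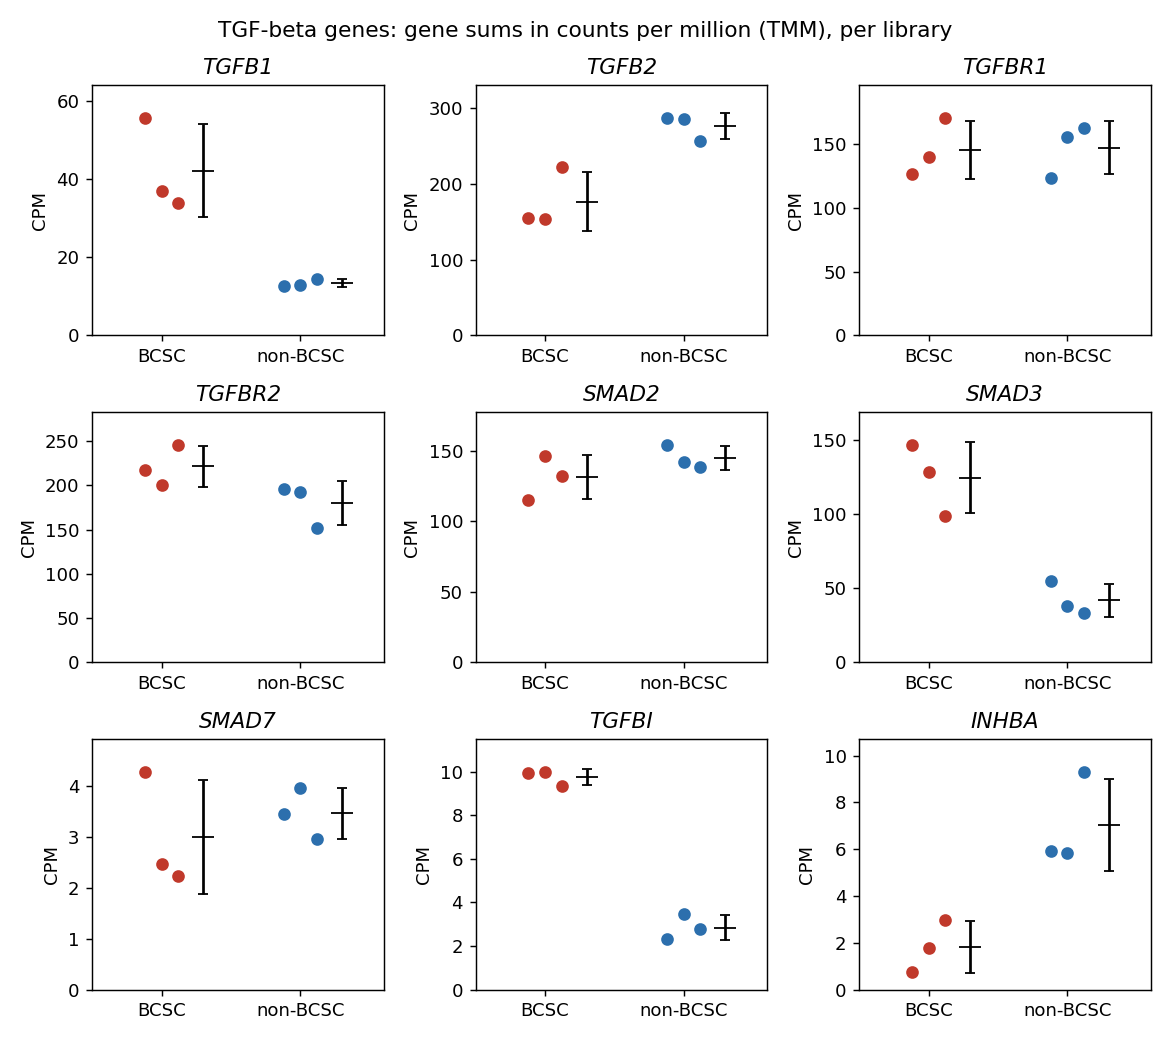
Each panel shows one gene, with the CPM of each library (vertical axis, linear from 0, TMM-scaled) as a point for 3 BCSC (red) and 3 non-BCSC (blue) libraries, and the mean with its SD as the bar to the right. The 3 BCSC points lie above all non-BCSC points for TGFB1, TGFBR2, SMAD3 and TGFBI and below them for TGFB2 and INHBA, whereas the groups overlap for TGFBR1, SMAD2 and SMAD7.

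The start regions of the 5 genes that passed the adjusted p are printed below, since they moved in opposite directions. The relation of fold change to base composition given above is for whole transcripts and was not tested for start regions. The sequences are from RefSeq (GRCh38.p14), 250 bases before and 50 after the most upstream start, with the SMAD-binding element CAGAC, or its complement GTCTG, in capitals.
TGFB1, chr19:41353873-41354172, minus strand: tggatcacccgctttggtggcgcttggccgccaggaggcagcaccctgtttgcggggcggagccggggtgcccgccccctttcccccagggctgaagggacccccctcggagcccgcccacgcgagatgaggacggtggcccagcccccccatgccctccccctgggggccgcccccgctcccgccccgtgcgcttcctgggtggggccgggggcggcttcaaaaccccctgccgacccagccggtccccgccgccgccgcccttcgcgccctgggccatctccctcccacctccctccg
SMAD3, chr15:67065352-67065651, plus strand: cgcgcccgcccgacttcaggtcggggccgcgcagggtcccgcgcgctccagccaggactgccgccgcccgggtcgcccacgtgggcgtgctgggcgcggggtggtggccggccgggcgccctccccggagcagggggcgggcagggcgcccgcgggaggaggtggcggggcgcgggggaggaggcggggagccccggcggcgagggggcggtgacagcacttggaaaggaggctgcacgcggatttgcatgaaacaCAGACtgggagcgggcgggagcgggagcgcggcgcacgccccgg
TGFBI, chr5:136028738-136029037, plus strand: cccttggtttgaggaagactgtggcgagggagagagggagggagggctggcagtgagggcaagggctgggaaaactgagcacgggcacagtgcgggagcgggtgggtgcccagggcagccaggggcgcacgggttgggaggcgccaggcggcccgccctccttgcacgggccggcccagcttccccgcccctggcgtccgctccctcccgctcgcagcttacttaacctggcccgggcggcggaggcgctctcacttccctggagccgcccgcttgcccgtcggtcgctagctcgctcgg
TGFB2, chr1:218345086-218345385, plus strand: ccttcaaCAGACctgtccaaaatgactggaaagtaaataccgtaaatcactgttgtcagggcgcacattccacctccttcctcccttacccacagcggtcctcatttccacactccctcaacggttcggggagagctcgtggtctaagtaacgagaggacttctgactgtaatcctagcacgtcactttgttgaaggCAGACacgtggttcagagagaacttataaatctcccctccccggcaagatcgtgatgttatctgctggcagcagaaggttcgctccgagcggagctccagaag
INHBA, chr7:41703041-41703340, minus strand: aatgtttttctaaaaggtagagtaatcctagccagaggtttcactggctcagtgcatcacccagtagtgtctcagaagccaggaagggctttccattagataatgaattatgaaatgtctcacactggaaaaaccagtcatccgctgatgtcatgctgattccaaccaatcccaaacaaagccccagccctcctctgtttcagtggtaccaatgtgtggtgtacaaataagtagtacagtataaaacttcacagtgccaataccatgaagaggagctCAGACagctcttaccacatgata
The windows of the 3 genes that were higher in BCSC held 77.3% (TGFB1), 80.3% (SMAD3) and 72.7% (TGFBI) G and C. Those of the 2 lower genes held 51.7% (TGFB2) and 43.3% (INHBA), beside a median of 58.7% over all 35116 windows. Genes that did not pass lay at both ends too, with 78.7% for SMAD2 and 42.3%, the lowest of the 9, for TGFBR2. Some genes have several start windows, of which only the most upstream was read: 8 for TGFBR1, 5 for SMAD3, 3 for SMAD7, and 2 each for TGFBR2 and SMAD2. Values for their other windows are not given here. Searched on both strands, CAGAC was found in 4 of the 9 genes' windows (TGFB2, SMAD3, SMAD7 and INHBA) and in 45.3% of all windows. The longer palindrome GTCTAGAC was in none of the 9 and in 0.202% of all windows, and the AP-1 motif TGANTCA in none and in 7.71%. A match describes letters only and marks no bound site.

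Among the ligands, TGFB1 was higher and TGFB2 lower in BCSC. TGFB1, which encodes the most widely expressed TGF-β ligand, gave 55.8, 36.9 and 33.9 CPM in the BCSC libraries and 12.6, 12.9 and 14.5 CPM in the non-BCSC libraries. Each BCSC value exceeded every non-BCSC value, and BCSC replicate 1 was the highest. The means were 42.2 ± 11.9 and 13.3 ± 1.0 CPM (SD, n = 3), a 3.16-fold difference with a log2 fold change of 1.66 (SE 0.24, adjusted p = 0.00180). TGFB1 transcripts hold 60.8% GC, and the log2 fold change after correction for GC content and length was 0.41 (adjusted p = 0.174, the upper end of a range from 1.03e-09 over 15 alternatives), so the call was lost there, while removal of the background left it at 1.55.

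TGFB2, the ligand of the same family with low affinity for TGFBR2 unless a co-receptor presents it, moved the other way. It gave 155, 153 and 222 CPM in BCSC and 287, 286 and 257 CPM in non-BCSC. All BCSC values were below all non-BCSC values, with BCSC replicate 3 the closest. The means of 176 ± 39.0 and 277 ± 17.0 CPM (SD, n = 3) gave a log2 fold change of -0.65 (SE 0.15, adjusted p = 0.0122), short of the fold of 2. Its transcripts are poor in GC (40.9%), and the direction turned to 0.30 after the GC and length correction (adjusted p = 0.233, from 0.000124 to 0.233 over the alternatives), and with the replicate block added it passed the test as higher (0.32, adjusted p = 0.0423). The adjusted p was above 0.05 without BCSC replicate 1 (0.0615), BCSC replicate 2 (0.0720) or non-BCSC replicate 2 (0.0604).

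INHBA, which encodes the βA subunit of activins, was low in both groups. It gave 15, 27 and 49 counts in BCSC against 72, 66 and 97 counts in non-BCSC, which is 0.739, 1.76 and 2.96 CPM against 5.94, 5.83 and 9.30 CPM. The groups did not overlap although the BCSC values were scattered. The means of 1.82 ± 1.11 and 7.03 ± 1.97 CPM (SD, n = 3) differed 3.86-fold, with a log2 fold change of -1.95 (SE 0.61, adjusted p = 0.0394). This call was made in 1 of 6 fits that left out a library. The adjusted p was 0.105 or 0.119 when BCSC replicate 1 or 2 was left out, and 0.0655, 0.0765 and 0.117 when non-BCSC replicate 1, 2 or 3 was. Its non-BCSC counts were 2.82 times the level of the olfactory receptor background, after whose removal the log2 fold change was -1.76 (adjusted p = 0.149, from 0.00745 to 0.149 over the alternatives). That multiple takes the mean length of its annotated transcripts (2494 bases), while INHBA-201, with most of its counts, has 6046.

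For the receptors, no difference was called. TGFBR1, the type I receptor kinase, gave 126, 140 and 171 CPM in BCSC and 124, 155 and 163 CPM in non-BCSC. The libraries of both groups interleaved, and the log2 fold change was -0.01 (SE 0.15, adjusted p = 0.952). TGFBR1 has the lowest GC content of the 9 genes (39.8%), and after the GC and length correction it was called higher at 1.06 (adjusted p = 0.000706, from 9.28e-06 to 0.919 over the alternatives). TGFBR2, the type II receptor that binds the ligand first, gave 218, 201 and 246 CPM in BCSC and 196, 193 and 152 CPM in non-BCSC. Its groups did not overlap, yet the gap between the nearest libraries was small, and means of 222 ± 22.8 and 180 ± 24.6 CPM (SD, n = 3) gave a log2 fold change of 0.30 (SE 0.13, adjusted p = 0.106) that did not pass the test. It was 0.86 after the GC and length correction (adjusted p = 0.00572, from 0.000122 to 0.671 over the alternatives), below the fold of 2, and 0.08 after removal of the background.

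The receptor-regulated SMADs differed from each other. SMAD3, which binds DNA directly, gave 146, 128 and 98.7 CPM in BCSC and 54.6, 37.7 and 33.2 CPM in non-BCSC. The lowest BCSC library was above the highest non-BCSC library, at means of 124 ± 24.1 and 41.8 ± 11.3 CPM (SD, n = 3). The 2.97-fold difference had a log2 fold change of 1.57 (SE 0.21, adjusted p = 0.00132) and was called in all 15 alternatives (adjusted p from 2.47e-20 to 0.0147), at 1.25 after the GC and length correction and 1.42 after removal of the background. SMAD2, whose main isoform does not bind DNA by itself, gave 115, 146 and 132 CPM in BCSC and 154, 142 and 138 CPM in non-BCSC. The groups overlapped and the log2 fold change was -0.14 (SE 0.12, adjusted p = 0.389), turning to 0.61 after the GC and length correction (adjusted p = 0.0429, from 0.00131 to 0.839 over the alternatives).

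SMAD7, the inhibitory SMAD that recruits ubiquitin ligases to the receptor, is itself a direct target of the pathway. It was near the lower end of the measured range, at 4.29, 2.48 and 2.24 CPM in BCSC and 3.47, 3.98 and 2.97 CPM in non-BCSC. BCSC replicate 1 was the highest library of the 6 and the other BCSC libraries were the lowest, so the groups overlapped. The log2 fold change was -0.21 (SE 0.58, adjusted p = 0.810), and the SE leaves changes of about 2-fold in either direction undetectable at 31 to 87 counts per library. Its sign turned to 0.18 after removal of the background.

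TGFBI, an extracellular matrix protein induced by TGF-β, rose in BCSC. It gave 202, 153 and 154 counts in BCSC against 28, 39 and 29 counts in non-BCSC, or 9.95, 9.98 and 9.31 CPM against 2.31, 3.45 and 2.78 CPM. BCSC libraries lay close together and well clear of the non-BCSC libraries, whose counts were 2.05 times the olfactory receptor background. That multiple takes the mean length of its annotated transcripts, 1454 bases, and most of the non-BCSC counts lay on longer ones. All non-BCSC counts were on transcripts annotated as retained introns. The means of 9.75 ± 0.377 and 2.85 ± 0.570 CPM (SD, n = 3) differed 3.43-fold, with a log2 fold change of 1.77 (SE 0.40, adjusted p = 0.0109). It was 1.66 after the GC and length correction and 2.59 after removal of the background. The call was lost without BCSC replicate 2 (adjusted p = 0.0544, from 0.000685 to 0.0544 over the alternatives).

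**Figure D2:**
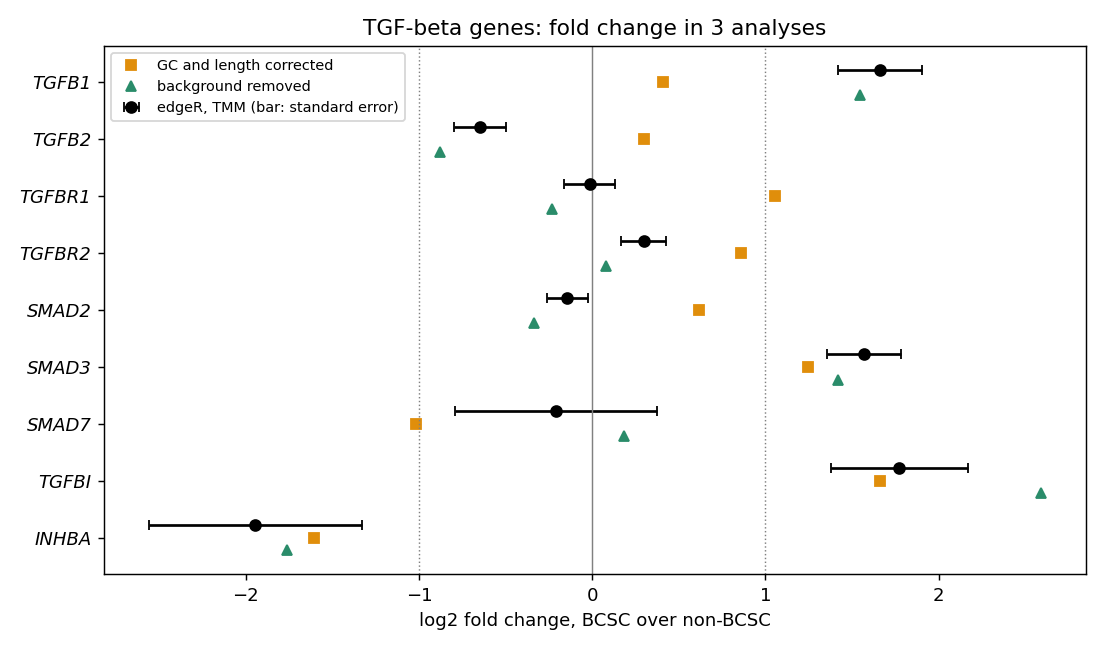
The horizontal axis gives the log2 fold change, BCSC over non-BCSC, of each of the 9 genes, with dotted lines at a fold of 2. Black points are the edgeR values with their SE, orange squares the values after correction for GC content and length, and green triangles those after removal of the background. TGFB1, TGFBR2, SMAD3, TGFBI and INHBA keep their side in all 3, although TGFB1 moves from 1.66 to 0.41 after the GC and length correction. TGFBR1 moves from -0.01 to 1.06 there.

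Levels of different genes were compared per transcript length, in TPM, the counts per kb of transcript summed per gene and scaled to the same total in every library. In BCSC the order was TGFBR1 (130 ± 79.3 TPM), TGFBR2 (129 ± 16.4), TGFB2 (81.3 ± 18.3), SMAD3 (64.5 ± 9.12), TGFB1 (41.7 ± 9.84), SMAD2 (21.1 ± 8.95), TGFBI (10.8 ± 0.739), SMAD7 (2.62 ± 1.07) and INHBA (0.923 ± 0.593 TPM, all SD, n = 3). The libraries of TGFBR1 and TGFBR2 overlapped, as did those of TGFB2 and SMAD3, so these neighbours have no settled order. The first place of TGFBR1 rested on BCSC replicate 2, at 222 TPM beside 84.5 and 84.0 in replicates 1 and 3. With the longest transcript as length it was at 78.0 TPM, below TGFBR2 and TGFB2 (104.5). Its libraries also overlapped those of TGFB2. In non-BCSC, TGFB2 (123 ± 3.82 TPM) and TGFBR2 (115 ± 25.1) came first with overlapping libraries, followed by TGFBR1 (68.5 ± 18.2). SMAD2 (22.4 ± 6.14 TPM), SMAD3 (21.1 ± 7.86) and TGFB1 (18.2 ± 4.13) formed a middle group in which neighbours overlapped, and INHBA (3.86 ± 1.19), TGFBI (2.81 ± 1.65) and SMAD7 (2.72 ± 0.353 TPM) a low one that overlapped likewise. The 3 highest means in both groups were those of TGFB2 and the receptors. In BCSC the 3 libraries of SMAD3 were above those of SMAD2 and of TGFB1, and in non-BCSC they overlapped with both neighbours. The place of SMAD2 rests on the annotated length of SMAD2-201, 34626 bases, which held most of its counts. Without regard to length, SMAD2 averaged 131 CPM and SMAD3 124 CPM in BCSC.

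Ratios within a library do not depend on its scaling, but those given here were not corrected for GC content. In all, 4 were formed after the values above had been seen. TGFB1 over TGFB2, per length, was 0.767, 0.505 and 0.347 in BCSC against 0.108, 0.159 and 0.174 in non-BCSC, a 3.66-fold difference of the means. The ratio was higher in every BCSC library than in any non-BCSC library, between a gene of 60.8% GC and one of 40.9%. With the longest transcript as length the difference was 5.19-fold, at means of 0.531 in BCSC and 0.102 in non-BCSC. After the GC and length correction the log2 fold changes of TGFB1 and TGFB2 were 0.41 and 0.30, both on the same side. SMAD3 over SMAD2 was 4.54, 2.10 and 3.46 in BCSC against 1.64, 0.887 and 0.548 in non-BCSC, a 3.29-fold difference without overlap. With the longest transcript as length the means were 5.17 and 1.54. On raw counts the ratio was 1.27, 0.875 and 0.749 in BCSC against 0.355, 0.266 and 0.240 in non-BCSC. The difference between groups thus held on each scale, while which of these SMADs was higher depended on the length taken. The corrected log2 fold changes of SMAD3 and SMAD2 were 1.25 and 0.61. TGFBR2 over TGFBR1 overlapped, at 1.43, 0.532 and 1.76 in BCSC against 2.17, 2.09 and 1.07 in non-BCSC (exact permutation p = 0.4, two-sided), and its direction turned when the longest transcript was taken as length, at means of 1.72 in BCSC against 1.40 in non-BCSC. Follistatin and the follistatin-like FSTL3 together over INHBA were 168, 40.6 and 74.6 in BCSC against 4.0, 3.35 and 2.78 in non-BCSC, a 28.0-fold difference that was 16.9-fold with the longest transcript as length. This ratio rests on low counts, as those of INHBA and FSTL3 in non-BCSC were 2.82 and 1.84 times the olfactory receptor background. The exact permutation p of the 3 ratios without overlap was 0.1, two-sided, which is the smallest that 3 against 3 libraries can give, and these tests were run on ratios picked for their values.

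**Figure D3:**
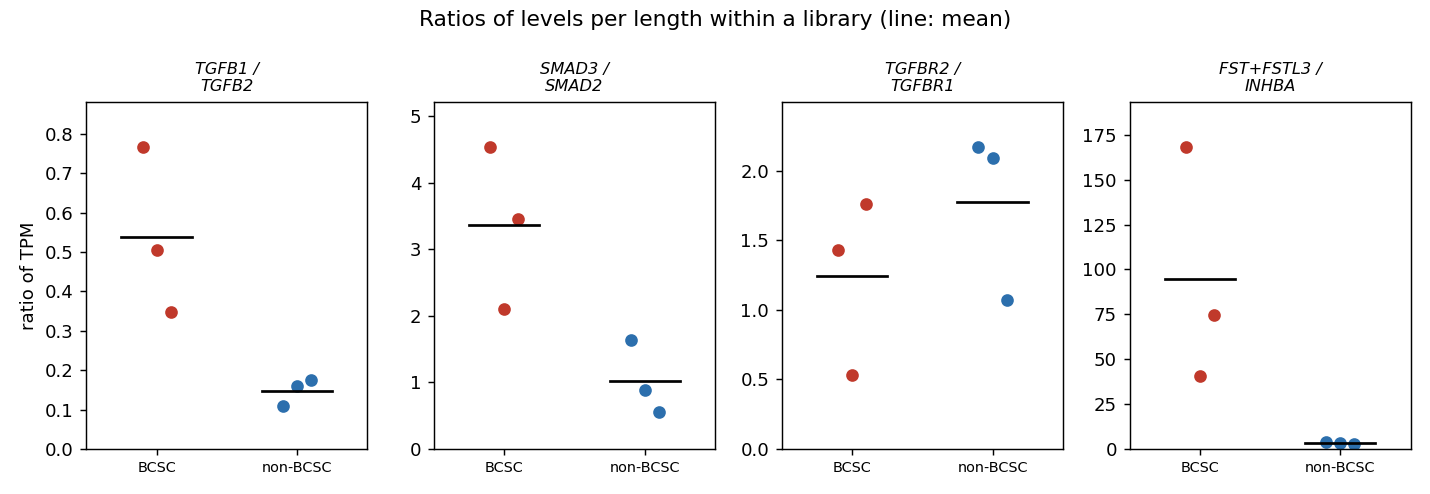
Each panel plots a ratio of levels per length (TPM over TPM, linear axis from 0) in each of 3 BCSC (red) and 3 non-BCSC (blue) libraries, with a line at the group mean. The BCSC points are all above the non-BCSC points for TGFB1 over TGFB2, SMAD3 over SMAD2 and FST plus FSTL3 over INHBA, and the groups overlap for TGFBR2 over TGFBR1.

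For TGFB2, the member with the highest mean CPM, the 3 closest of 5660 genes in pattern over the 6 libraries were NT5DC1, MME and PLD1, at root mean square differences of 0.0823, 0.0928 and 0.0955 in centred log2 CPM. NT5DC1 gave 34.2, 38.6 and 55.9 CPM in BCSC and 62.7, 68.7 and 59.9 CPM in non-BCSC, with BCSC replicate 3 nearest to the non-BCSC libraries as for TGFB2.

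The gene sums rested on different isoforms. Of 86 annotated transcripts of the 9 genes on file, 62 had a count in some library and 23 could be tested as single transcripts. None was called by edgeR (0.784% of 45898 transcripts were), 6 passed an unadjusted p of 0.05 (17.4% of transcripts did) and the lowest adjusted p was 0.0702, for SMAD3-201. DESeq2, run without a prior filter on low counts, called 4 of the genes' transcripts, all higher. Its share over all transcripts is not given here, so this count cannot be read against a background. The biological coefficient of variation was 0.453 for gene sums and 1.02 for transcripts, so counts of single transcripts were far more scattered between replicates. SMAD3 and TGFB1 each rested on one protein-coding isoform: SMAD3-201 gave 2783, 1813 and 1515 counts in BCSC against 606, 422 and 323 in non-BCSC, and TGFB1-201 gave 1111, 560 and 550 against 147, 124 and 135. Both kept the direction of their gene without overlap, at log2 fold changes of 1.63 (SE 0.31) and 1.88 (SE 0.39).

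The isoforms of TGFB2 and of the receptors were divided differently among libraries of one group. TGFB2-202 gave 2332, 1870 and 3660 counts in BCSC against 3467, 3232 and 2681 in non-BCSC. The other coding isoform, TGFB2-201, gave 805 and 474 counts in BCSC replicates 1 and 2 but 2 in replicate 3, and 15, 0 and 0 in non-BCSC (log2 fold change 5.87, SE 2.65, adjusted p = 0.340). TGFBR1-202 gave 1470, 138 and 1477 counts in BCSC against 1425, 1526 and 0 in non-BCSC. In BCSC replicate 2 its place was taken by TGFBR1-206 with 1876 counts, and in non-BCSC replicate 3 by TGFBR1-209 with 1407, so that similar gene sums came from different annotated isoforms. TGFBR2-205, a retained-intron transcript, held 949 counts in non-BCSC replicate 2 and 20 to 46 in the other libraries. TGFBI-201, a protein-coding isoform, gave 155 and 127 counts in BCSC replicates 1 and 3 and 0 in BCSC replicate 2, and 0 in every non-BCSC library. BCSC replicate 2 instead had 120 counts on the retained-intron transcript TGFBI-205 of that gene, named after its values were seen. In non-BCSC all TGFBI counts lay on transcripts annotated as retained introns, with 9, 18 and 23 of them on TGFBI-205. The log2 fold change of TGFBI thus holds for the gene sum over coding and retained-intron transcripts and not for one isoform.

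**Figure D4:**
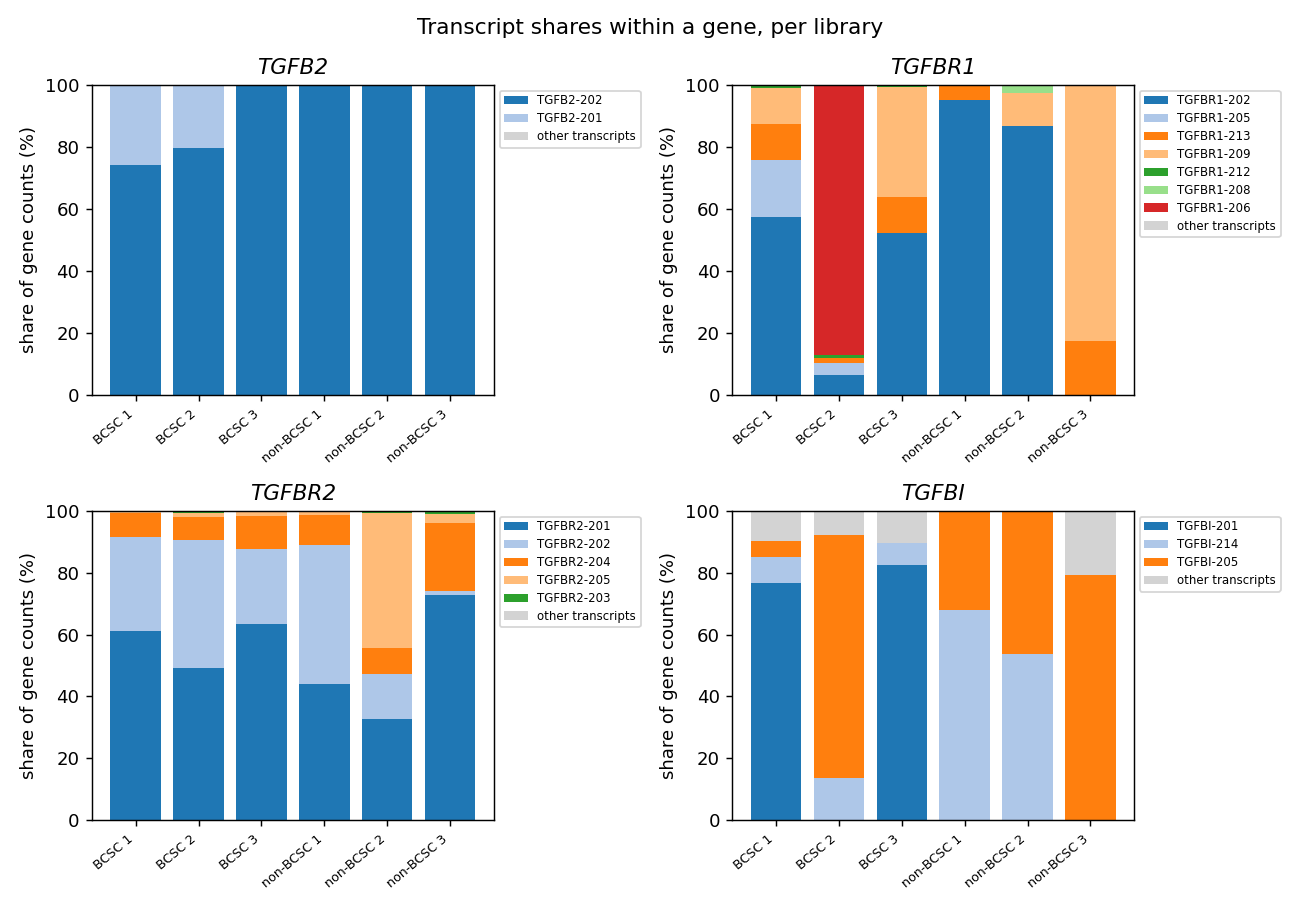
Bars give, for each library (horizontal axis), the share of a gene's counts (vertical axis, %) on each annotated transcript of TGFB2, TGFBR1, TGFBR2 and TGFBI, with transcripts under 15 counts in every library in grey. Libraries of one group differ in the transcript that holds most counts for TGFBR1, TGFBR2 and TGFBI, whereas TGFB2-202 holds the largest share of TGFB2 in all 6.

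The other genes of the pathway were taken from 4 lists of 103 genes, of which 90 could be tested. Of these, 13 were called higher in BCSC and 7 lower, or 22.2% beside 20.1% of all genes, and 24 passed the adjusted p as higher and 10 as lower (15.3% and 14.6% of all genes) while 56 did not. The median log2 fold change was 0.22. After the GC and length correction the medians of the ligand, receptor, SMAD and response lists were 0.33, 0.42, 0.77 and -0.18, beside 0.20 for all genes, so the response list's sign turned. The 13 that were not tested included NODAL, INHA, INHBB, LEFTY1 and LEFTY2.

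Among 25 tested ligands, activators and antagonists of 33 listed, 4 were called higher and 3 lower, or 28.0% beside 20.1% of all genes. The median log2 fold change was 0.44. Both genes of latent TGF-β binding proteins that were called rose: LTBP3 averaged 30.5 ± 5.53 CPM in BCSC and 10.5 ± 0.497 in non-BCSC (log2 fold change 1.54, SE 0.23, adjusted p = 0.00216), and LTBP4 23.7 ± 7.85 and 7.94 ± 1.78 CPM (1.58, SE 0.32, adjusted p = 0.00773). After the GC and length correction these were 0.15 and 0.07, and neither was called, as for TGFB1, whose latent complex such proteins hold in the matrix. LTBP1, of the same family and named after its values were seen, was lower at 52.7 ± 5.16 against 77.8 ± 8.78 CPM (-0.56, SE 0.15, adjusted p = 0.0198), short of the fold of 2, and -0.25 after the correction. FST, encoding follistatin, averaged 25.1 ± 3.81 and 8.77 ± 1.14 CPM (1.52, SE 0.25, adjusted p = 0.00333) and remained called in all 15 alternatives, at 1.83 after the GC and length correction. FSTL3 averaged 9.84 ± 4.54 and 1.88 ± 0.383 CPM (2.39, SE 0.49, adjusted p = 0.00807), lost its call after that correction (0.70) and without BCSC replicate 1 (1.96, adjusted p = 0.0592, from 0.000219 to 0.255 over the alternatives). Of the genes that fell, BMP6, a bone morphogenetic protein ligand, averaged 7.27 ± 1.67 and 25.1 ± 2.68 CPM (-1.78, SE 0.27, adjusted p = 0.00231). GREM1, a bone morphogenetic protein antagonist, averaged 2.54 ± 1.13 and 14.3 ± 7.30 CPM (-2.50, SE 0.54, adjusted p = 0.00936). DCN, a proteoglycan that binds TGF-β, averaged 1.61 ± 1.70 and 13.0 ± 6.08 CPM (-3.01, SE 0.73, adjusted p = 0.0147) and lost its call without BCSC replicate 1 (0.0512) or non-BCSC replicate 3 (0.0614, from 2.12e-06 over the alternatives). With INHBA lower and FST and FSTL3 higher, the activin subunit and its antagonists moved in opposite directions. Of these, only FST was called in all 15 alternatives. INHBA lost its call after removal of the background (adjusted p = 0.149), and FSTL3 after the GC and length correction (adjusted p = 0.198). The non-BCSC counts of FSTL3 were 1.84 times the olfactory receptor background.

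Of 10 tested receptors of 11 listed, 1 was called higher and 2 lower, or 30.0% beside 20.1% of all genes. The median log2 fold change was 0.13. ACVR1, a type I receptor for activins and bone morphogenetic proteins, averaged 41.6 ± 7.31 and 20.7 ± 6.53 CPM (1.01, SE 0.27, adjusted p = 0.0206). Its fold was at the limit of 2 and the call was lost in 8 of 15 alternatives, including those without BCSC replicate 1 (0.88), BCSC replicate 2 (1.03, adjusted p = 0.0601, from 0.000137 to 0.0736 over the alternatives) or non-BCSC replicate 2 (0.82). ACVR2A, an activin type II receptor, fell from 95.3 ± 6.58 to 45.1 ± 4.35 CPM between non-BCSC and BCSC (-1.08, SE 0.14, adjusted p = 0.00100). It was -0.28 after the GC and length correction, and passed below the fold of 2 without BCSC replicate 1 (-0.999) or non-BCSC replicate 2 (-0.98). ACVR1C, the type I receptor also named ALK7, averaged 4.89 ± 2.28 and 17.3 ± 7.47 CPM (-1.82, SE 0.44, adjusted p = 0.0150) and lost its call without BCSC replicate 1 (-1.53), BCSC replicate 2 (-1.71) or non-BCSC replicate 3 (-1.39).

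Among 22 tested SMADs and regulators, 2 were called, both higher, or 9.09% beside 20.1% of all genes. By adjusted p alone 7 were higher and 1 lower, beside 15.3% and 14.6% of all genes, and the median was 0.10. CREBBP, a histone acetyltransferase and SMAD coactivator, averaged 177 ± 31.1 and 73.9 ± 2.06 CPM (1.26, SE 0.14, adjusted p = 0.000588) and was called in all 15 alternatives. SKI, a corepressor of SMAD complexes, averaged 69.9 ± 10.5 and 28.7 ± 10.6 CPM (1.28, SE 0.25, adjusted p = 0.00667), turning to -0.09 after the GC and length correction. SMAD4, the common partner of SMAD2 and SMAD3, had a log2 fold change of 0.01 (adjusted p = 0.976) and was called higher at 1.07 after the GC and length correction.

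Of 33 tested response genes of 37 listed, 6 were called higher and 2 lower, or 24.2% beside 20.1% of all genes, with a median of 0.26. CCN1, a matricellular protein, averaged 105 ± 19.9 and 40.5 ± 9.65 CPM (1.38, SE 0.20, adjusted p = 0.00184), and PTHLH, the parathyroid hormone-related protein known from bone metastasis, 21.7 ± 2.53 and 3.74 ± 1.97 CPM (2.54, SE 0.44, adjusted p = 0.00369). Both were called in all 15 alternatives. CDKN1A, the cyclin-dependent kinase inhibitor p21, averaged 58.9 ± 20.2 and 15.7 ± 6.44 CPM (1.90, SE 0.34, adjusted p = 0.00422), and MMP2, a gelatinase, 46.1 ± 10.6 and 22.5 ± 5.03 CPM (1.03, SE 0.24, adjusted p = 0.0131). After the GC and length correction these were 0.76 and 0.40, below the fold of 2, and MMP2, at the limit of the fold of 2, lost its call in 9 of 15 alternatives, among them those without BCSC replicate 1 (0.86) or non-BCSC replicate 3 (0.88). LOX, the collagen-crosslinking lysyl oxidase, was lower in BCSC at 201 ± 38.8 against 651 ± 125 CPM (-1.69, SE 0.17, adjusted p = 0.000391), and -0.67 after the correction. ID1 and POSTN, named after their values were seen, were also called. ID1 was higher and lost its call without any of 4 libraries (BCSC replicates 1 and 2, non-BCSC replicates 2 and 3, adjusted p up to 0.0848 with a library left out) or after the GC and length correction (from 1.12 to 0.18). POSTN was lower (-3.35) and lost its call without non-BCSC replicate 3 (adjusted p = 0.0696, from 0.000172 over the alternatives). It was -1.83 after the GC and length correction, and not called when the replicate block was added to that (adjusted p = 0.0640). The response genes that rose with TGFBI therefore stood beside LOX and POSTN, matrix genes of the same list that fell.

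**Figure D5:**
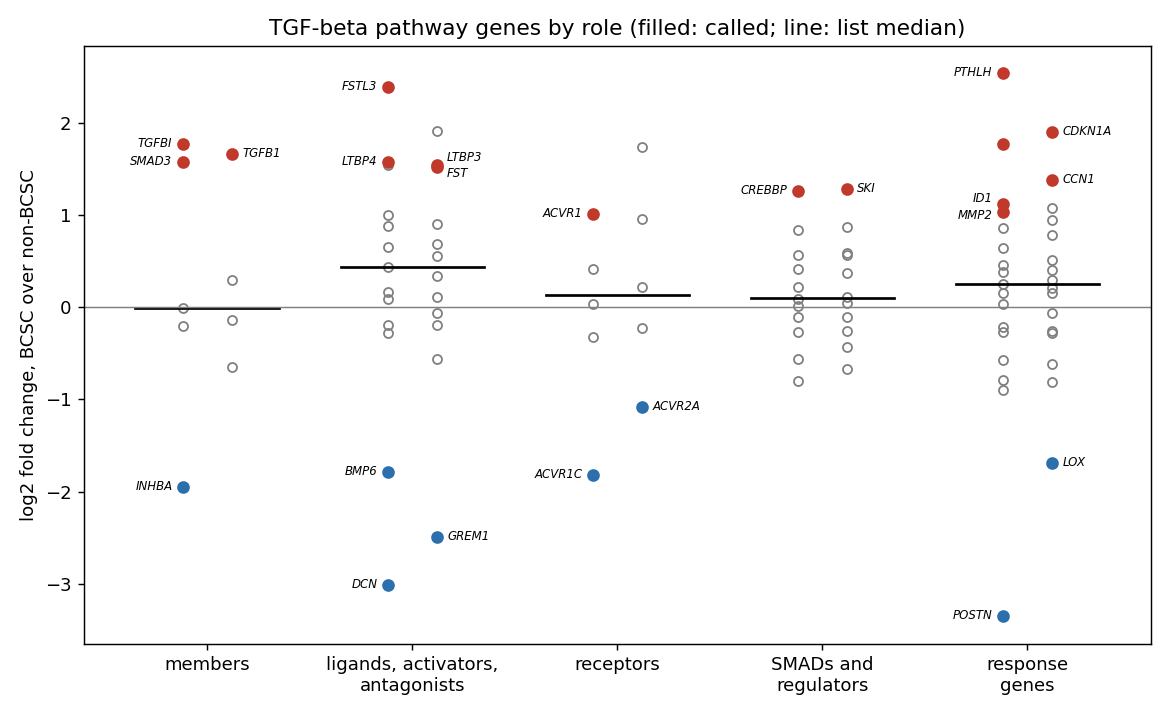
The vertical axis gives the log2 fold change, BCSC over non-BCSC, of each tested gene, grouped on the horizontal axis into the 9 genes and the 4 lists. Filled points are genes called higher (red) or lower (blue), labelled where the text names them, open points were not called, and the black line is the median of each group, from -0.01 for the 9 genes to 0.44 for the ligand list.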

How the data were processed

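RNA from 6 libraries (3 BCSC, 3 non-BCSC) was sequenced by the authors with a strand-marking dUTP protocol. The deposited table holds raw read counts per Ensembl transcript. The submitters' processing notes name HISAT2, featureCounts, DESeq2 and the build hg38, and the study's RNA-Seq methods name another build, so no coordinates of the counted genes are given. The annotation release and the use of strand in counting are not given in the sources used here, so reads from overlapping antisense genes cannot be told apart.

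Of 252618 transcripts, 249616 (98.8%) matched GENCODE release 44 identifiers, 2998 did not (at most 0.341% of counts) and 4 carried assembler identifiers. Matched counts were summed per gene and tested in edgeR 4.0.16 (R 4.3.3; TMM, filterByExpr, robust quasi-likelihood fit, group only) across all genes, with Benjamini-Hochberg adjustment. A call needed an adjusted p under 0.05 and a fold above 2, the rule of the study's RNA-Seq methods section. For the lncRNA comparison of these libraries the study's text gives the same fold with an unadjusted p. TPM were computed from the deposited counts and GENCODE transcript lengths.

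Alternatives were RLE factors, DESeq2 1.42.0 with its own independent filtering only, other filters (none, or 10 counts in every library), thinning to the smallest library, leaving out each library, the replicate number as a block, loess offsets per library on GC content and length (span 0.3), and subtraction of a background per kb estimated from olfactory receptor genes. The background was scaled to the mean length of each gene's annotated transcripts. The ratios and their alternative scales were added after the data were seen. Only the main edgeR fit on gene sums was tested on simulated data, which held no GC trend and no difference in background between groups. The transcript fits and the alternatives were not tested in that way.

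The genes and lists were chosen with earlier results of these data known. Besides the 9 genes and their transcripts with a mean of at least 50 counts in either group, the text names from each list up to 4 genes called in each direction, by smallest p and averaging 50 counts or more. It also names the 3 genes closest in pattern to TGFB2 among those averaging 500 counts or more, and marker genes. Replicates of a group differed beyond sampling noise (chi-square per degree of freedom 13.7 to 35.5), so none was a duplicate. Totals of 9898588 to 21215352 counts limit low genes. PECAM1 was not analysed here. 1 gene counted among the called response genes is not reported here by name.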

Additional observations from a re-analysis of the deposited data

How the results depend on the processing

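TGFB1, SMAD3 and TGFBI higher and INHBA lower were called by edgeR and likewise with RLE factors, DESeq2, both other filters, thinning and the replicate block. Leaving out a library gave 2 to 4 called members (2, TGFB1 and SMAD3, without BCSC replicate 2), 2 to 5 by adjusted p alone, 12 to 23 of the other pathway genes, 2157 to 4821 of all genes and 0 member transcripts. All genes called numbered 6673 in DESeq2, where no prior filter on low counts was applied (49795 genes tested), and 2560 with at least 10 counts in every library (13216 tested), against 4117 (20442 tested). Member transcripts called numbered 4 and 2 under the same settings, against 0, and the shares of all transcripts called under those settings are not given here. The count of genes at the same rank of level in both groups was 1, and 5 with the longest transcript as length. The GC and length correction again called 4 members, with TGFBR1 in place of TGFB1, and turned TGFB2 (0.30, with the replicate block 0.32), TGFBR1 (1.06 in both), SMAD2 (0.61 in both) and SKI (-0.0896, with the block -0.0829). TGFBR1, near 0, also turned without a filter (0.0623) and ranged from -0.151 to 0.0878 with a library left out. SMAD7 turned after background removal (0.18), which also left 3 members called. The cause of these changes was not tested. The check used did not settle whether the numbers in the titles pair the samples. Correlations of same-numbered deviations were 0.222, 0.0302 and 0.248, and those of other pairs ran from -0.232 to 0.0432. BCSC replicate 2 correlated more with non-BCSC replicate 1 (0.0432) than with its own number (0.0302). The main fit used group only. The replicate block gave 4 members, 5 by adjusted p alone, 20 other pathway genes, 4315 of all genes (1994 higher, 2321 lower) and 0 member transcripts. Low counts limit SMAD7, TGFBI and INHBA, whose non-BCSC counts were within 3 times the background. These multiples take the mean length of a gene's annotated transcripts, 1259 bases for SMAD7, 1454 for TGFBI and 2494 for INHBA. Most of the non-BCSC counts lay on longer transcripts, such as SMAD7-201 (3341), TGFBI-205 (3159) and INHBA-201 (6046). At those lengths the multiples would be smaller, and background removal would take more.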
